A study of Mus musculus with 44 samples.

Results

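The PPAR receptors and lipid storage genes described here are 10 genes of fatty acid handling, taken by their symbols from the 24940 genes listed in each of the 4 count tables of the series. They are the nuclear receptors Pparg and Ppard, the fatty acid carriers Cd36, Fabp4 and Fabp7, the lipid droplet coat gene Plin2, the lipase Lpl with its inhibitor Angptl4, and Cpt1a and Pdk4, which favor fatty acid oxidation. The libraries were RNA-seq of BMDMs, bone marrow-derived macrophages, which are grown in culture with M-CSF from the marrow of C57BL/6 mice, for which the methods give an age of 8 to 12 weeks. The 44 libraries formed 22 groups of 2. In the NCoR table (24 libraries), BMDMs came from NCoR flox/flox mice, called wild type (WT), and from NCoR flox/flox, LysMCre mice, called NKO. Both genotypes received vehicle, KLA, IFNβ, IL4 or poly I:C for 6 h, or RANKL for 12 h. KLA (Kdo2 lipid A) activates TLR4, and poly I:C is a double-stranded RNA mimic that activates TLR3. The RGFP966 table (6 libraries) held wild-type BMDMs with vehicle, with KLA, and with KLA plus RGFP966, an inhibitor of the deacetylase HDAC3. The Pgc1b table (8 libraries) held BMDMs of Pgc1b flox/flox mice without and with LysMCre, each with vehicle or KLA. The TBK1i table (6 libraries) held wild-type BMDMs with DMSO, with DMSO and KLA, and with KLA plus an inhibitor of the kinase TBK1 (TBK1i). By the methods, KLA was given for 6 h in these tables too. All cells were, by the same methods, serum-starved before treatment, with the inhibitors added when starvation began. LysMCre is driven by the Lyz2 locus and acts in myeloid cells, and the share of cells with a completed deletion was not measured.

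PPARγ and PPARδ are receptors that bind fatty acids and their derivatives, pair with RXR and sit on DNA at a direct repeat of the hexamer AGGTCA spaced by 1 base, called DR1. Without ligand they can hold corepressors such as NCoR, whose partner is HDAC3. In macrophages, PPAR target genes serve the uptake of lipids from modified lipoproteins, their storage as droplets and their oxidation in mitochondria, and these programs are known to differ between resting, alternatively activated and inflammatory cells.

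The promoter windows of 7 of the 10 members could be read from RefSeq (build GRCm38, 250 bases before to 50 bases after each annotated start, 9 windows in all). They are shown because DR1 is the element through which PPARs act. AGGTCANAGGTCA was searched on both strands with up to 2 mismatches outside the N, and the half-site AGGTCA, which overlaps DR1, was searched exactly. A DR1 with at most 2 mismatches was found in 2 of the 9 member windows and in 3.86% of all 32851 windows. The half-site was found in 6 of the 9 and in 16.3% of all windows. The 250 bases upstream of the start are given 5′ to 3′ on the gene's strand, with the DR1 match or the half-site in capitals, for the pair with a DR1 match and for Fabp7.
Plin2 (chr4:86670060-86670309, minus strand): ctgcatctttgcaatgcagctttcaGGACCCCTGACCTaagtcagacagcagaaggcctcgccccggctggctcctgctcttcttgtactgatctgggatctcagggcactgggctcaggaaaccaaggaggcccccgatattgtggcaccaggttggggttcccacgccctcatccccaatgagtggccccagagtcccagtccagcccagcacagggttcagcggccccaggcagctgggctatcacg
Cd36 (chr5:17835897-17836146, minus strand): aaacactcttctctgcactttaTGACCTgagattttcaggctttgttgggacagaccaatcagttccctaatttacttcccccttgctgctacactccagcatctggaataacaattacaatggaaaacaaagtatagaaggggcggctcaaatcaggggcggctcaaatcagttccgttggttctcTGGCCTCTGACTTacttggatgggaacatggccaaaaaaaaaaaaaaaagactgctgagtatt
Fabp7 (chr10:57784673-57784922, plus strand): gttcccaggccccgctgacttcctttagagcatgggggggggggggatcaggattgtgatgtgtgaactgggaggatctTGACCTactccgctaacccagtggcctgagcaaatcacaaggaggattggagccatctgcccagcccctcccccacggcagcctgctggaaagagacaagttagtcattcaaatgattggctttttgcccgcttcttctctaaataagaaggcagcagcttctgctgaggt
The Plin2 match began 225 bases before the start and contained an intact half-site, whereas the Cd36 match began 63 bases before the start and its intact half-site lay elsewhere. The Fabp7 window held an intact half-site but no DR1 within 2 mismatches. A match describes the letters only, and binding was not measured here.

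Total gene counts per library ranged from 8323493 to 16783155. Levels are given as CPM, counts scaled to a common library size. By total gene counts alone, 3 counts corresponded to 0.179 to 0.360 CPM. The scaling factors used for CPM widened this range, with 1 count at 0.0737 CPM in RGFP966_KLA replicate 1 and 0.167 in WT_KLA replicate 2. Ncor1 was 2.67 to 3.43 times lower in NKO than in WT across the 6 conditions, with 49.4 to 65.0 CPM in NKO libraries. Ppargc1b, the targeted gene of the Pgc1b table, had 110 and 87 counts with LysMCre under KLA against 75 and 54 without Cre, and gene-level counts do not resolve which exons were deleted. Lyz2, whose locus carries the Cre, was lower in the libraries labelled LysMCre, with 4397 and 4422 against 8108 and 8325 CPM under vehicle (log2 fold change -0.90 ± 0.052 SE, adjusted p = 3.41e-14) and -0.87 ± 0.052 under KLA, and averaged 4604 CPM in NKO and 9209 in WT under vehicle. All 6 macrophage markers exceeded 3 counts in every library, while 5 of 6 adipocyte markers, Plin1 and Cidec among them, stayed at 3 counts or fewer in every library. Transcripts of the Y chromosome marked 10 libraries, the NKO_KLA pair and all 8 of the Pgc1b table, and Xist marked the other 34. By the date stamps in their names, NKO_KLA libraries preceded WT_KLA by 1401 days, WT_KLA preceded vehicle by 115 days, and the RANKL libraries of both genotypes preceded vehicle by 536 days, where the step that was stamped is not given. Stamp and sex therefore cannot be told apart from genotype in the comparison of NKO_KLA with WT_KLA. In bulk RNA, fewer cells expressing a gene and less RNA per cell cannot be told apart.

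The members spanned a wide range of levels. Per kilobase of transcript, Lpl was the most abundant member in all 22 groups, and Lpl, Plin2 and Cd36 were the top 3 in all 22. In vehicle-treated WT cells, Lpl averaged 1731 CPM per kb, Plin2 699 and Cd36 602, followed by Fabp4 at 139, Cpt1a at 46.0 and Pparg at 40.3. Angptl4 at 10.9, Ppard at 9.75, Fabp7 at 2.22 and Pdk4 at 0.439 CPM per kb closed the order. Pparg exceeded Ppard per kb in 16 groups, and the 6 groups with the opposite order were all among the 8 KLA groups. Fabp4 exceeded Fabp7 per kb in all 22 groups, although Fabp7 reached 66.6 CPM per kb in RANKL-treated NKO cells. Pdk4 was hardly detectable: its highest count in any library was 22, and 18 of the 44 libraries had 0. The rows lie at chr6:115360951-115490401 (Pparg), chr17:28232754-28301469 (Ppard), chr5:17781690-17835896 (Cd36), chr3:10204343-10208616 (Fabp4), chr10:57784923-57788450 (Fabp7), chr4:86656565-86670059 (Plin2), chr8:68880555-68906932 (Lpl), chr17:33774900-33781575 (Angptl4), chr19:3323301-3385733 (Cpt1a) and chr6:5483351-5496278 (Pdk4) of mm10.

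**Figure D1:**
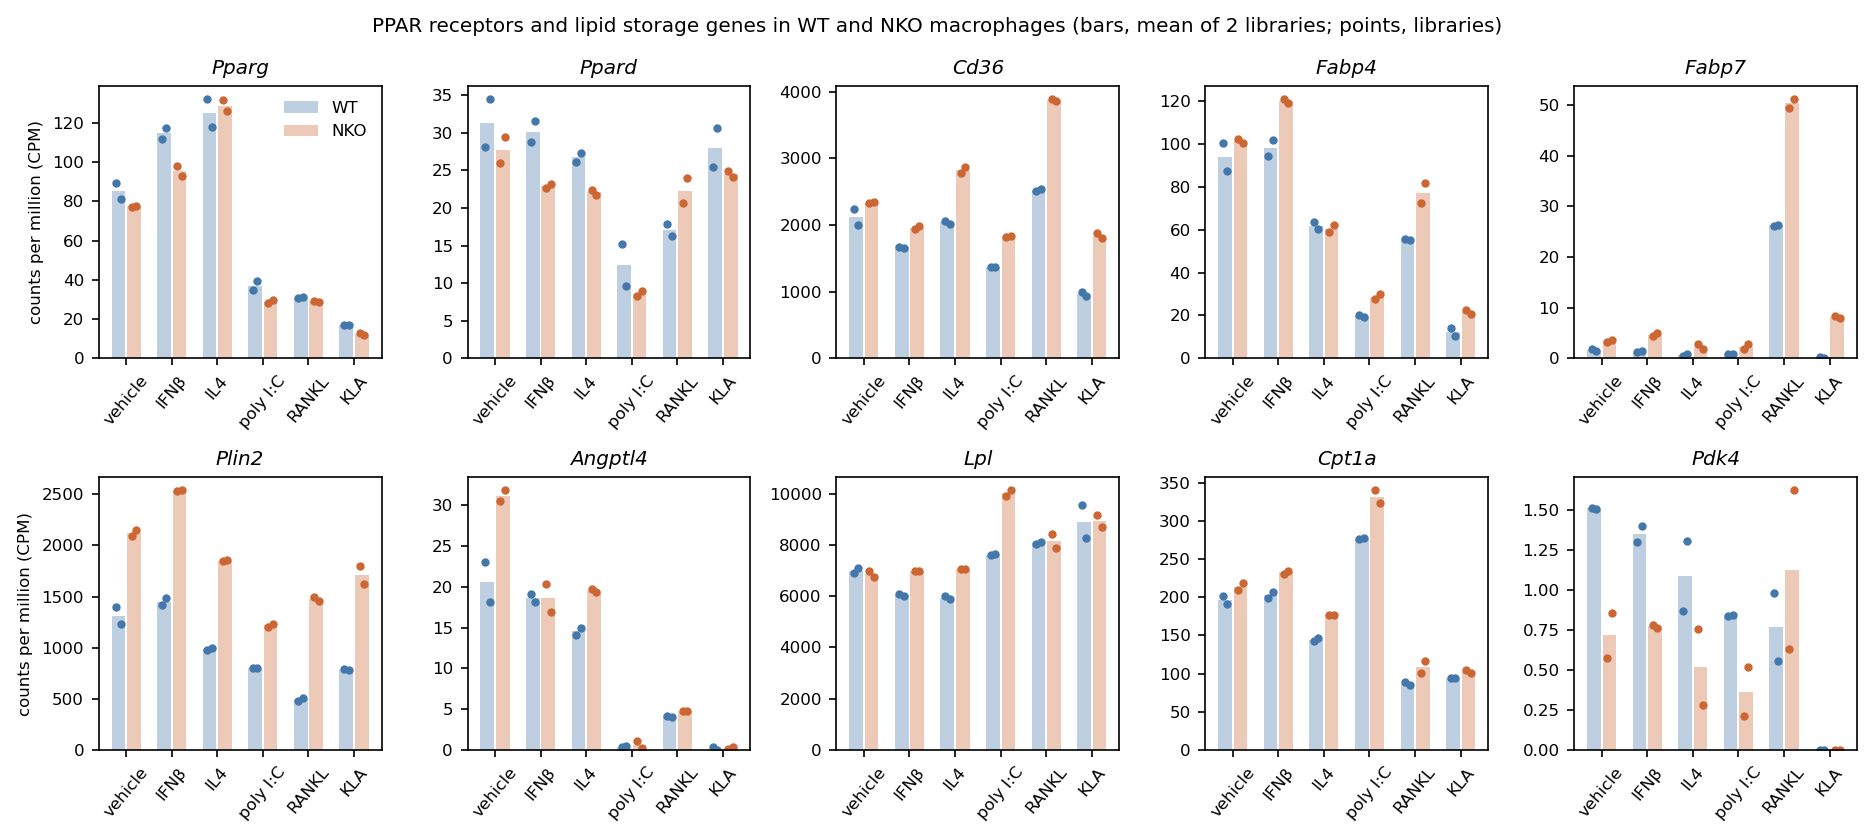
CPM of the 10 genes in the 24 libraries of the NCoR table, by treatment (horizontal axis). Bars are means of 2 libraries and points are libraries, WT in blue and NKO in orange. The lower of the 2 NKO points of Plin2 lies above the higher WT point in each of the 6 conditions, and Fabp7 peaks under RANKL.

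To ask what NCoR holds back among these genes, NKO was compared with WT in each condition. Plin2 and Fabp7 were called higher in NKO in all 6 conditions, and no member was called lower. A call required an adjusted p below 0.05 in edgeR's quasi-likelihood test and a fold change above 1.5. By DESeq2 Plin2 passed in 5 of the 6. Under vehicle 3 of 10 members were called, beside 6.21% of all genes tested called either way. The counts were 2 of 10 under IFNβ (3.80%), 2 under IL4 (4.24%), 2 under poly I:C (5.93%), 3 under RANKL (13.2%) and 4 under KLA (40.0%). The median log2 fold change of the members was 0.11 under vehicle, 0.20 under IFNβ, 0.27 under IL4, 0.40 under poly I:C, 0.43 under RANKL and 0.40 under KLA, where the medians of all genes ran from -0.01 to 0.07. The change of the genotype effect with treatment, an interaction term, was called for 3 members under KLA and 1 under RANKL. Under poly I:C, IFNβ and IL4 it was called for none by edgeR or by DESeq2, beside 3.24%, 0.604% and 0.604% of genes, with 3, 3 and 5 members at an unadjusted p below 0.05. Markers of other cell types moved with genotype as well. Under vehicle the 6 osteoclast markers summed to 1501 and 1460 CPM in NKO and 1053 and 865 in WT, and the 5 stromal markers to 66.0 and 66.5 against 97.1 and 88.1. Under KLA the 4 dendritic cell markers summed to 31.0 and 24.5 CPM in NKO and 4.59 and 4.50 in WT, and the stromal markers to 11.4 and 8.48 against 0.819 and 1.33. Under RANKL the 5 neutrophil markers summed to 987 and 918 CPM in NKO and 654 and 629 in WT. Their part in the values of the members was not tested.

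Plin2 encodes perilipin 2, the coat protein of lipid droplets in macrophages. Under vehicle it measured 1393 and 1230 CPM in WT and 2089 and 2153 in NKO, a log2 fold change of 0.69 ± 0.052 (SE, adjusted p = 8.66e-17). It measured 1418 and 1481 CPM in WT and 2529 and 2538 in NKO under IFNβ (0.81 ± 0.052), and 974 and 998 against 1843 and 1862 under IL4 (0.91 ± 0.053). In each of these conditions the lowest NKO library stood above the highest WT library. Under poly I:C the WT libraries had 802 and 798 CPM and the NKO libraries 1202 and 1233 (0.61 ± 0.053), the smallest difference of the 6. RANKL gave the largest, with 480 and 510 CPM in WT and 1493 and 1458 in NKO (1.58 ± 0.054, adjusted p = 9.08e-33). The excess under RANKL was larger than that under vehicle, by 0.88 ± 0.074 on the log2 scale (interaction term, adjusted p = 8.82e-15), and Plin2 was the only one of 10 members with such a call, beside 14.2% of genes called either way. The RANKL libraries of both genotypes were stamped 536 days before vehicle and treated for 12 h, against 6 h. Stamp and treatment length therefore cannot be told apart from RANKL in that difference. Under KLA Plin2 had 789 and 779 CPM in WT and 1795 and 1623 in NKO (1.12 ± 0.054). Plin2 in KLA-treated NKO cells was thus above its level in vehicle-treated WT cells. The poly I:C value lay at the fold threshold, and it was not called with DESeq2 (0.58) or with DESeq2's size factors in edgeR (0.58).

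Fabp7 encodes a fatty acid-binding protein best known from glia of the brain, and it was low in these cells outside RANKL. Under vehicle it had 28 and 21 counts in WT and 44 and 63 in NKO (1.93 and 1.44 against 3.16 and 3.59 CPM, log2 fold change 1.01 ± 0.26, adjusted p = 0.00231). The WT libraries had 1.23 and 1.40 CPM under IFNβ and the NKO libraries 4.39 and 5.03 (1.84 ± 0.26). Under IL4 the values were 0.550 and 0.922 in WT and 2.94 and 1.77 in NKO (1.67 ± 0.35). NKO libraries stood above WT libraries in each case, at counts of 7 to 66. Under poly I:C Fabp7 had 8 and 8 counts in WT and 18 and 27 in NKO (1.29 ± 0.40, adjusted p = 0.0149). Under RANKL it reached 26.2 and 26.4 CPM in WT and 49.5 and 51.2 in NKO (0.94 ± 0.12), at its highest counts. Under KLA the WT libraries had 2 counts and 1 count, whereas the NKO libraries had 98 and 84, a ratio of 33.2 (95% counting interval, 11.2 to 162). All 4 glial markers together summed to at most 1.44 CPM in any library. The call under vehicle was lost without WT_Veh replicate 2 (0.82, adjusted p = 0.0658) or NKO_Veh replicate 2 (0.91, adjusted p = 0.0521), that under IL4 without NKO_IL4 replicate 1 (1.25, adjusted p = 0.0505), and that under poly I:C without any 1 of 3 libraries (0.98 to 1.30), namely both WT libraries and NKO_PolyIC replicate 2.

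Cd36, the scavenger receptor through which macrophages take up fatty acids and oxidized lipoproteins, was higher in NKO under RANKL and KLA. Its levels under RANKL were 2513 and 2540 CPM in WT and 3893 and 3855 in NKO (log2 fold change 0.62 ± 0.049), and under KLA 995 and 943 in WT and 1886 and 1801 in NKO (0.93 ± 0.050). NKO libraries also lay above WT libraries in the other 4 conditions, with log2 fold changes of 0.14 to 0.47 that did not reach 1.5-fold. The excess under KLA exceeded that under vehicle by 0.79 ± 0.070 (interaction term, adjusted p = 7.33e-15). Fabp4 encodes the fatty acid-binding protein of adipocytes and macrophages, a classical PPARγ target. It was called higher in NKO only at KLA, from 14.2 and 10.7 CPM in WT to 22.7 and 20.8 in NKO (0.80 ± 0.14), and its interaction term was 0.69 ± 0.15 (adjusted p = 1.28e-04), a call lost without WT_KLA replicate 2 (0.50). With Fabp7, these were the 3 members with a called interaction at KLA, where 36.9% of all genes were called. Under IL4 Fabp4 did not differ detectably between genotypes, with 63.5 and 60.0 CPM in WT and 58.8 and 62.1 in NKO (-0.03 ± 0.073).

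**Figure D2:**
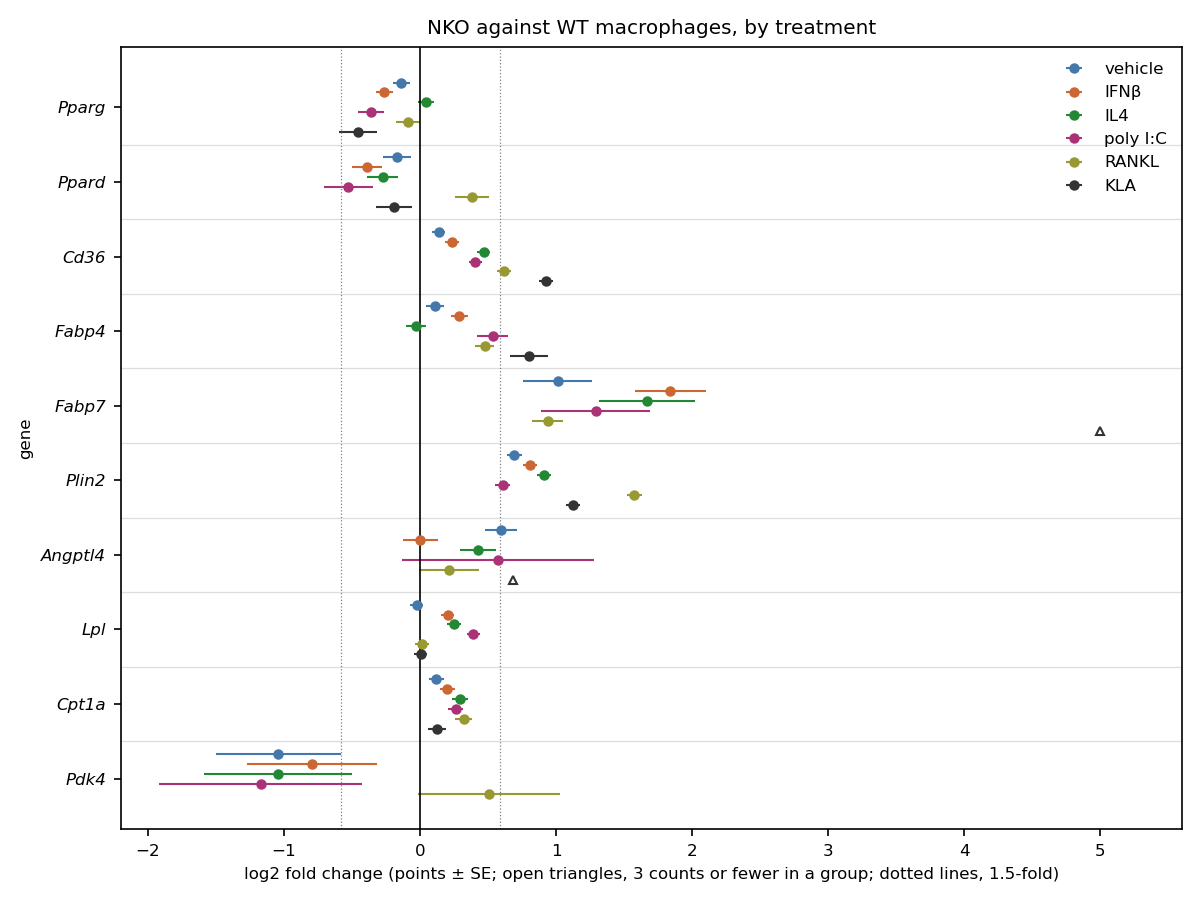
Log2 fold change of NKO over WT for the 10 genes (vertical axis) in the 6 conditions (colors). Points carry ± SE, open triangles mark comparisons with 3 counts or fewer in a group, and dotted lines mark 1.5-fold. All Plin2 points lie to the right of the upper dotted line, from 0.61 under poly I:C to 1.58 under RANKL, whereas all Pparg points lie between the dotted lines.

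Neither receptor was called higher in NKO in any of the 6 conditions. Pparg measured 89.2 and 81.3 CPM in WT and 77.2 and 77.7 in NKO under vehicle, and its log2 fold changes ran from -0.46 under KLA to 0.04 under IL4. Its NKO mean was the higher of the pair in 1 of 6 conditions. Ppard had 28.1 and 34.5 CPM in WT and 25.9 and 29.5 in NKO under vehicle, and its log2 fold changes ran from -0.53 under poly I:C to 0.38 under RANKL, where NKO libraries with 20.6 and 23.99 CPM stood above WT libraries with 17.9 and 16.3. Neither receptor moved by 1.5-fold, although without WT_PolyIC replicate 2 Ppard was called lower under poly I:C (-0.82). Lpl, which encodes the enzyme that frees fatty acids from lipoprotein triglyceride, was 6894 and 7083 CPM in WT and 6998 and 6738 in NKO under vehicle, and its log2 fold change reached at most 0.39 (poly I:C). Angptl4, a secreted inhibitor of that enzyme and a PPAR target, was 23.1 and 18.2 CPM in WT and 30.5 and 31.8 in NKO under vehicle (0.59 ± 0.12, adjusted p = 6.73e-05). That call stood at the fold threshold and was lost without WT_Veh replicate 2 (0.43) or NKO_Veh replicate 2 (0.56), and Angptl4 was at most 1.06 CPM in both genotypes under poly I:C and KLA. Cpt1a, the gatekeeper of mitochondrial fatty acid entry, had an NKO mean above the WT mean in all 6 conditions, by log2 fold changes of 0.12 to 0.32 that did not reach the threshold. Pdk4, which inhibits pyruvate dehydrogenase, had at most 22 counts and was called in no condition.

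The NKO_KLA libraries, which differ from WT_KLA in stamp and sex, were also set against the KLA-treated controls of the other 3 tables. This was a joint fit of 10864 genes. Those controls are stamped 1452 (RGFP966 table), 1558 (TBK1i table) and 1644 days (Pgc1b table) after NKO_KLA. Plin2 and Fabp7 were called higher in NKO_KLA against each of the 4 control sets. Plin2 exceeded the wild-type KLA libraries of the RGFP966 table by 1.35 ± 0.055 on the log2 scale, the Pgc1b flox/flox ones, which carry Y transcripts as NKO_KLA does, by 1.36 ± 0.055, and the DMSO ones by 1.60 ± 0.055. Fabp7 exceeded them by 2.81 ± 0.35, 2.16 ± 0.33 and 2.10 ± 0.33. Cd36 and Fabp4 did not hold in the same way. Cd36 gave 0.60 ± 0.054 against DMSO but -0.23 ± 0.054 and -0.17 ± 0.054 against the other controls, and Fabp4 gave 0.58 ± 0.15, -0.44 ± 0.14 and 0.02 ± 0.14. Of all genes, 43.3% were called either way against WT_KLA, and 46.9%, 37.3% and 41.7% against the controls of the RGFP966, Pgc1b and TBK1i tables. Pparg was called higher against the Pgc1b flox/flox libraries (0.72 ± 0.19) and lower against the wild-type ones of the RGFP966 table (-0.73 ± 0.16), so its direction depended on the control. Lpl was called lower against the Pgc1b flox/flox libraries (-0.67 ± 0.067) and in no other of the 4. These comparisons share the NKO_KLA libraries, whose stamp precedes that of every control set. Stamp and genotype therefore cannot be told apart in any of them.

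**Figure D3:**
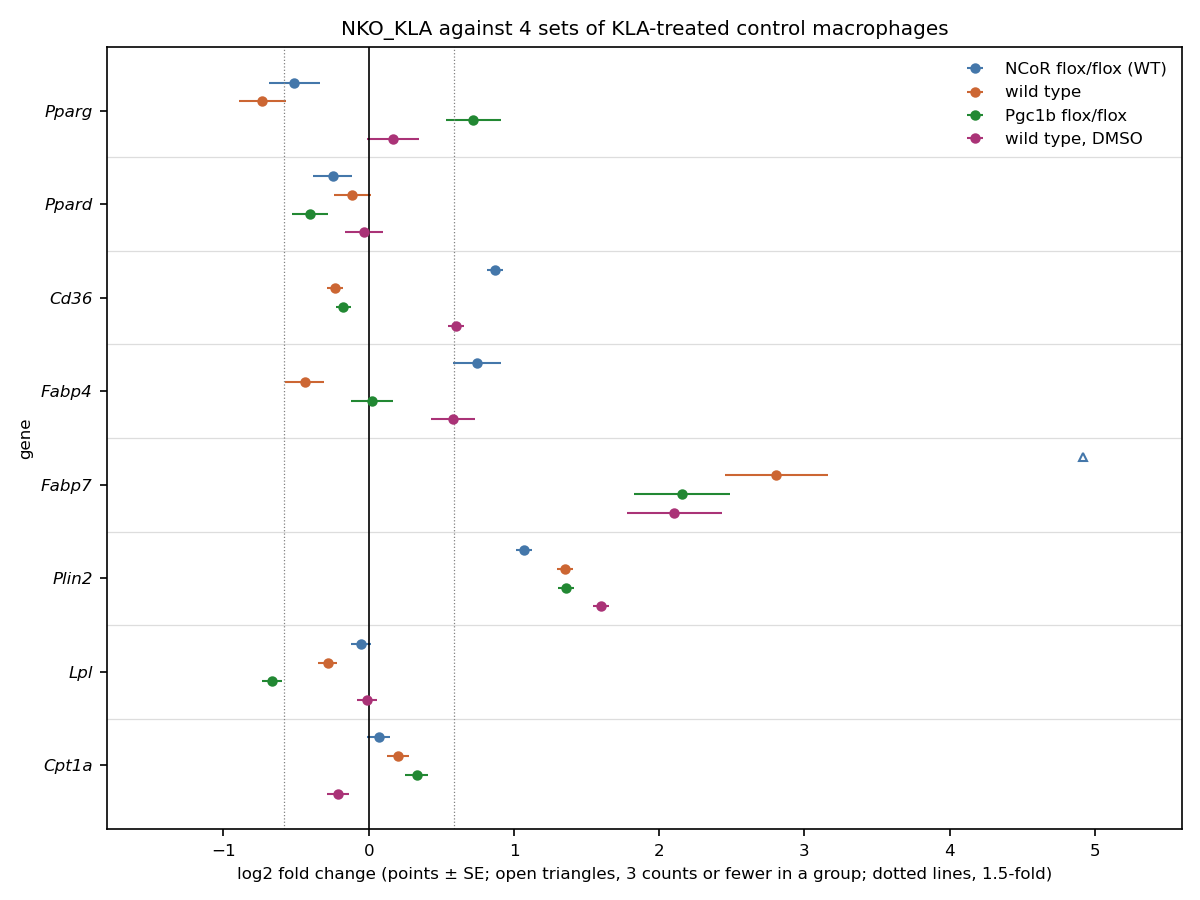
Log2 fold change (± SE) of NKO_KLA over KLA-treated controls from 4 tables (colors) for the 8 members tested in the joint fit. The open triangle marks Fabp7 against WT_KLA, which had 3 counts in all. Plin2 points lie between 1.07 and 1.60, whereas Cd36, Fabp4 and Pparg points fall on both sides of 0.

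The response to TLR4 activation was measured in 4 control sets, each with a vehicle group of the same table. KLA lowered Pparg, Fabp4 and Angptl4 in all 4, and Lpl was never lower. In WT cells 8 of 10 members fell and none rose, beside 57.8% of genes called either way. The others gave 6 of 9 lower in the RGFP966 table, 3 of 9 lower and 1 higher in Pgc1b flox/flox cells, and 6 of 10 lower and 1 higher with DMSO, where 60.0%, 48.5% and 58.9% of genes were called either way. The members' median log2 fold change ran from -0.55 to -1.73 over the 4 sets, while the median of all genes ran from -0.14 to 0.02. In the NCoR table WT_KLA was stamped 115 days before WT_Veh, so stamp and KLA cannot be told apart there. KLA and vehicle shared a stamp in the other sets. The 5 stromal markers summed to 97.1 and 88.1 CPM in WT_Veh and 0.819 and 1.33 in WT_KLA. In the TBK1i table they summed to 50.8 and 52.2 with DMSO and 48.7 and 46.2 with DMSO and KLA. With KLA they were higher in the RGFP966 table (0.563 and 0.206 to 2.20 and 2.14 CPM) and in Pgc1b flox/flox cells (0.162 and 0.0671 to 1.87 and 0.628). In all 4 sets the osteoclast markers were lower with KLA and the endothelial markers higher. In WT these went from 1053 and 865 to 236 and 238 CPM and from 7.70 and 8.96 to 187 and 199. The part of these markers in the KLA values was not tested.

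Pparg fell from 89.2 and 81.3 CPM to 17.03 and 16.8 in the NCoR table (-2.33 ± 0.098), and from 105 and 103 to 15.3 and 17.4 in the RGFP966 table (-2.66 ± 0.091). It went from 66.9 and 75.2 to 8.12 and 6.16 CPM in Pgc1b flox/flox cells (-3.30 ± 0.15) and from 71.9 and 71.3 to 11.4 and 9.49 with DMSO (-2.77 ± 0.11). The groups were far apart in every set. Ppard behaved otherwise: its log2 fold changes were -0.16, -0.42 and -0.54 in the NCoR, RGFP966 and TBK1i tables, none past 1.5-fold with all libraries, and 0.65 ± 0.16 in Pgc1b flox/flox cells (18.1 and 21.6 to 33.1 and 29.3 CPM). That rise was not called without Pgc1b_flox_Veh replicate 1 (0.53) or Pgc1b_flox_KLA replicate 1 (0.55), whereas Ppard was called lower in the TBK1i table without DMSO_KLA replicate 2 (-0.65).

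Among the carriers, Fabp4 dropped from 100.4 and 87.2 to 14.2 and 10.7 CPM in WT (-2.91 ± 0.11), by -2.11 ± 0.086 and -2.25 ± 0.10 in the RGFP966 and TBK1i tables, and by only -0.76 ± 0.12 in Pgc1b flox/flox cells, from 34.9 and 35.0 to 20.6 and 20.7 CPM. The vehicle level of Fabp4 was itself lower in that table. Cd36 fell from 2246 and 2001 to 995 and 943 CPM in WT (-1.13 ± 0.050) and by -0.64 ± 0.053 in the RGFP966 table, and gave -0.39 and -0.32 in the Pgc1b and TBK1i tables. Plin2 fell in 3 sets (-0.74 ± 0.053, -0.80 ± 0.056 and -1.18 ± 0.038) and gave -0.50 ± 0.057 in Pgc1b flox/flox cells. Cd36 and Plin2 means were lower with KLA in all 4 sets, without overlap of libraries. Fabp7 was called lower in the NCoR table alone, from 28 and 21 counts to 2 counts and 1 count (ratio 6.78, 95% counting interval 2.19 to 34.0). In the RGFP966 table, with 6 and 18 counts under vehicle and 9 and 12 under KLA, it was called higher without Veh replicate 2 (1.70, adjusted p = 0.0236), and differences in its response between tables were not tested.

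Angptl4 all but vanished with KLA. The 16 KLA libraries of all tables had at most 4 counts of it, and 6 had 0. In WT cells it went from 336 and 266 counts to 2 and 0, a ratio of 125 (95% counting interval, 34.5 to 1035). The ratio was 104 (28.6 to 863) in the RGFP966 table and 369 (66.0 to 14597) with DMSO, and in Pgc1b flox/flox cells, where both KLA libraries had 0, it was at least 21.7-fold lower against a floor of 3 counts over the group. Its partner Lpl went the other way in mean, from 6894 and 7083 to 9544 and 8278 CPM in WT (0.35 ± 0.049), and it was called higher with DMSO, from 5393 and 5411 to 8259 and 8877 CPM (0.67 ± 0.031), a call lost when only genes of at least 5 CPM were kept (0.56). Cpt1a fell in 3 sets (-1.06 ± 0.064, -0.96 ± 0.067 and -0.62 ± 0.054) and gave -0.55 ± 0.087 in Pgc1b flox/flox cells, where it was called without Pgc1b_flox_Veh replicate 1 (-0.62) or Pgc1b_flox_KLA replicate 2 (-0.64). Its call with DMSO was lost without DMSO_KLA replicate 1 (-0.56). Pdk4 went from 22 and 22 counts to 0 and 0 in WT, at least 6.09-fold lower.

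**Figure D4:**
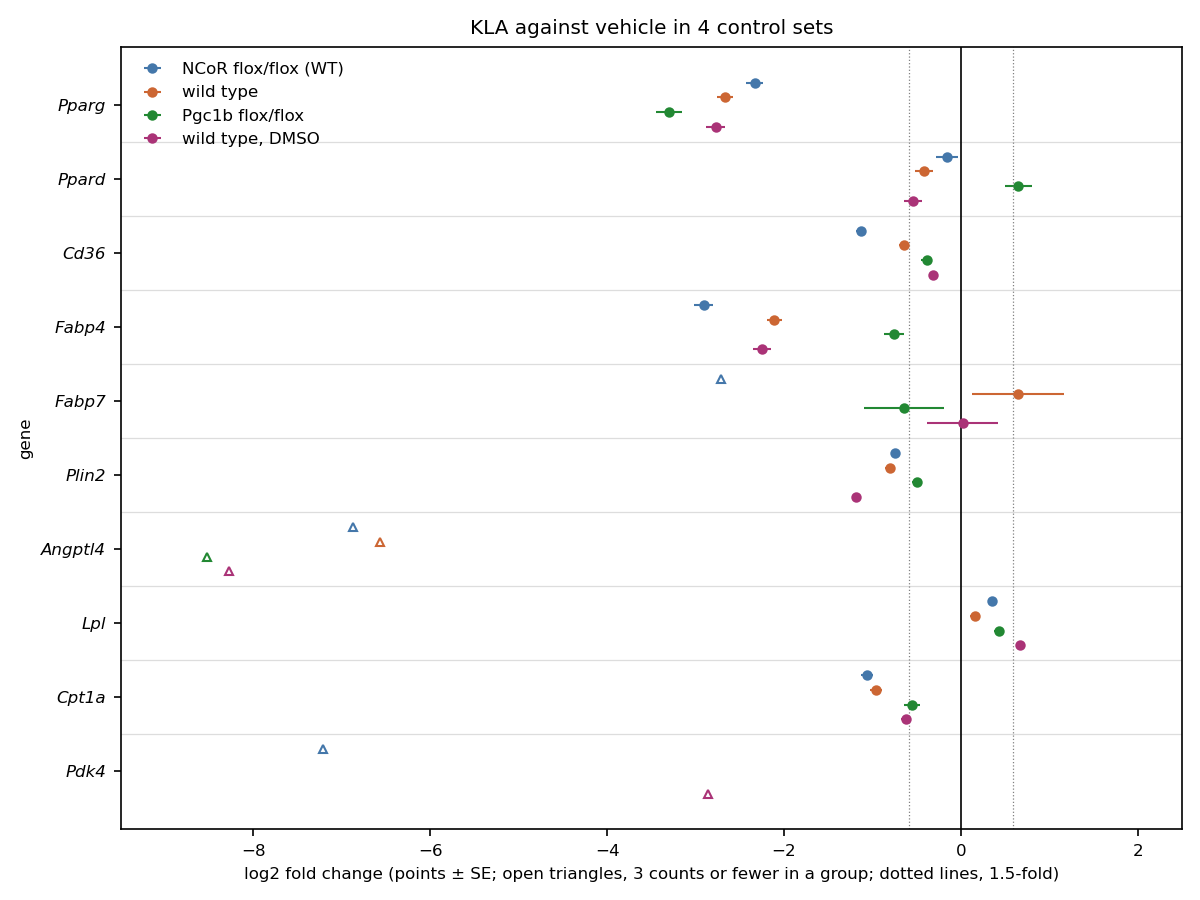
Log2 fold change of KLA over vehicle in the 4 control sets (colors). Points carry ± SE, and open triangles mark comparisons with 3 counts or fewer in a group, whose fitted position is not a bound. Pparg lies between -2.33 and -3.30 in all 4 sets, and Lpl lies to the right of 0 in all 4.

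Poly I:C lowered 6 of 10 members and raised none, beside 47.2% of genes called either way. Pparg fell to 35.0 and 39.2 CPM (-1.20 ± 0.077), Fabp4 to 20.4 and 19.2 (-2.24 ± 0.091) and Angptl4 to 3 and 4 counts (-5.59 ± 0.30). Ppard fell as well, from 28.1 and 34.5 to 15.2 and 9.62 CPM (-1.33 ± 0.14), unlike its KLA value in the same table. Plin2 (-0.71 ± 0.053) and Cd36 (-0.62 ± 0.050) completed the list, and the Cd36 call was lost without WT_Veh replicate 1 (-0.54) and with DESeq2 (-0.58). Cpt1a differed from its KLA response in sign, with 275 and 277 CPM against 202 and 192 under vehicle (0.49 ± 0.056), although below 1.5-fold. The difference between the KLA and poly I:C effects was not tested.

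RANKL, the cytokine that drives osteoclast formation, lowered 6 members and raised 1, beside 43.8% of genes called either way. Fabp7 rose from 1.93 and 1.44 to 26.2 and 26.4 CPM (3.96 ± 0.18), the highest WT level of this gene in any condition. Pparg fell to 30.6 and 31.4 CPM (-1.46 ± 0.072), Plin2 to 480 and 510 (-1.41 ± 0.054) and Angptl4 to 4.19 and 4.05 (-2.32 ± 0.16). Cpt1a (-1.18 ± 0.058), Ppard (-0.87 ± 0.11) and Fabp4 (-0.76 ± 0.069) fell too, whereas Cd36 was 2513 and 2540 CPM (0.25 ± 0.049). The lowered members thus included both receptors. The RANKL libraries carry an earlier stamp and a longer treatment, and the column names call their cells osteoclasts. The 6 osteoclast markers summed to 157 to 198 CPM in the 4 RANKL libraries against 187 to 2168 in the other 20 of this table, with Calcr at 3 counts or fewer throughout, the 5 neutrophil markers to 629 to 987 against 1.54 to 8.21, and the 5 stromal markers to 195 to 326 against 0.819 to 131. Their part in the RANKL values was not tested.

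Calls were few among the members with IFNβ and IL4, as they were among all genes. With IFNβ no member was called by edgeR (0 of 10, beside 6.47% of genes) or by DESeq2, and 4 had a p below 0.05, unadjusted and adjusted alike, with changes under 1.5-fold. Pparg was 111 and 118 CPM with IFNβ (0.42 ± 0.062). With IL4, which drives alternative activation, 2 of 10 fell, beside 13.1% of genes called either way. With IL4, 8 members had an unadjusted and 7 an adjusted p below 0.05, 9 did not overlap with vehicle, and the members' median log2 fold change was -0.43, against -0.01 for all genes. No share of all genes by p alone or by non-overlap is given, so these counts do not set the members apart. Fabp4 fell from 100.4 and 87.2 to 63.5 and 60.0 CPM (-0.60 ± 0.069) and Fabp7 from 28 and 21 counts to 7 and 12 (-1.18 ± 0.38, adjusted p = 0.0118). Both calls were lost without WT_Veh replicate 1 (-0.50 and -0.95), that of Fabp4 also without WT_IL4 replicate 2 (-0.56) and that of Fabp7 without WT_IL4 replicate 1 (-0.86). Pparg reached 132 and 118 CPM with IL4 (0.55 ± 0.062, adjusted p = 4.52e-11), its highest WT mean of the 6 conditions but just under 1.5-fold, and it was called without WT_Veh replicate 1 (0.62) or WT_IL4 replicate 2 (0.63). Thus Pparg and its target Fabp4 differed from vehicle in opposite directions under IL4.

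The inhibitors and the Pgc1b allele were compared during KLA. With RGFP966, 4 of 9 members rose and 1 fell, beside 25.4% of genes called either way. Cpt1a rose from 74.0 and 69.0 CPM with KLA to 154 and 151 (1.09 ± 0.068, adjusted p = 1.07e-24), and Cd36 from 1687 and 1777 to 3149 and 3120 (0.86 ± 0.054). Both exceeded the vehicle level of the same table, which was 138 and 139 CPM for Cpt1a and 2633 and 2777 for Cd36. Fabp7 rose from 9 and 12 counts to 61 and 56 (2.22 ± 0.39) and Plin2 from 549 and 521 CPM to 784 and 859 (0.62 ± 0.056). Pparg fell further, from 15.3 and 17.4 to 9.36 and 10.95 CPM (-0.69 ± 0.13), while Fabp4 was 22.2 and 25.0 against 23.4 and 23.3 CPM (-0.02 ± 0.10). The Plin2 call was lost with DESeq2 (0.55) and without KLA replicate 2 (0.57) or RGFP966_KLA replicate 2 (0.55), the latter stamped 14 days after its partner, and the Pparg call without RGFP966_KLA replicate 1 (-0.58). Marker sums moved with RGFP966 too. The endothelial sums went from 144 and 121 to 40.7 and 39.2 CPM, and the neutrophil sums from 4.40 and 6.18 to 20.6 and 22.1. What part this had in the values of the members was not tested.

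With the TBK1 inhibitor 5 of 10 members fell and 1 rose, beside 33.3% of genes called either way. Plin2 fell from 548 and 528 CPM to 155 and 151 (-1.81 ± 0.044), its lowest level in the 22 groups. Lpl fell from 8259 and 8877 to 3374 and 3289 (-1.36 ± 0.032) and Cpt1a from 109 and 117 to 35.3 and 36.5 (-1.65 ± 0.072), which were also the lowest of the 22 groups for both genes. Pparg fell from 11.4 and 9.49 to 5.21 and 5.53 CPM (-0.96 ± 0.19). Fabp4 rose in the same libraries, from 15.5 and 12.2 to 33.8 and 38.6 CPM (1.38 ± 0.12, adjusted p = 4.84e-31). Fabp7 fell from 20 and 12 counts to 5 and 7 (-1.49 ± 0.55, adjusted p = 0.0132), a call lost with DESeq2 (adjusted p = 0.116) and without DMSO_KLA replicate 1 (-1.12) or TBK1i_KLA replicate 1 (-1.18). Cd36 was 1138 and 1172 against 876 and 846 CPM (-0.42 ± 0.036), below 1.5-fold. Among the marker lists, the endothelial sums went from 123 and 131 to 3.81 and 5.08 CPM with TBK1i. The stromal sums went from 48.7 and 46.2 to 31.2 and 28.5, and the osteoclast sums from 321 and 318 to 394 and 385. Whether these shifts had a part in the values of the members was not tested.

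The effects of RGFP966 and TBK1i on the KLA response were tested against each other in a joint fit of both tables, a test chosen after the values were seen. They differed for 6 of the 9 members with counts in both tables, beside 32.8% of genes called. Pdk4 had 0 counts in all 6 libraries of the RGFP966 table and could not be compared. The difference (RGFP966 effect minus TBK1i effect) was 2.70 ± 0.098 for Cpt1a, 2.38 ± 0.073 for Plin2, 1.62 ± 0.064 for Lpl, 1.23 ± 0.065 for Cd36, 3.66 ± 0.67 for Fabp7 and -1.45 ± 0.16 for Fabp4. For Pparg it was 0.22 ± 0.22 and was not called, since Pparg fell under both. The compounds act on different enzymes, and the controls of the RGFP966 table are labelled without DMSO.

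In KLA-treated cells labelled Pgc1b flox/flox, LysMCre, 2 of 9 members were higher and 2 lower than without Cre, beside 26.1% of genes called either way. Fabp4 was 97.6 and 98.4 CPM against 20.6 and 20.7 (2.25 ± 0.11, adjusted p = 1.04e-18), so that its KLA level exceeded the vehicle level of the same cells, 44.9 and 41.7. Pparg was 14.8 and 12.3 CPM against 8.12 and 6.16 (0.91 ± 0.18). Ppard was 14.7 and 10.8 against 33.1 and 29.3 (-1.28 ± 0.17) and Cpt1a 49.2 and 46.8 against 74.5 and 83.3 (-0.71 ± 0.094). Under vehicle none of the 9 members was called by edgeR, beside 0.303% of genes, or by DESeq2, and 3 had an unadjusted p below 0.05. The interaction of Cre with KLA was called for the same 4 genes, beside 22.8% of genes: 1.94 ± 0.15 for Fabp4, 0.96 ± 0.21 for Pparg, -1.28 ± 0.23 for Ppard and -0.71 ± 0.12 for Cpt1a. Plin2 was 471 and 480 CPM with Cre and 644 and 644 without under KLA (-0.44 ± 0.058), and its interaction term was -0.48 ± 0.080, below 1.5-fold. Under KLA the osteoclast markers summed to 706 and 715 CPM with Cre and 328 and 342 without. The endothelial markers summed to 16.5 and 19.3 against 113 and 102, and the macrophage markers to 5459 and 5586 against 7183 and 7163. Their part in the values of the members was not tested. The names of the KLA libraries with Cre give no hours, whereas those without Cre give 6 h.

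**Figure D5:**
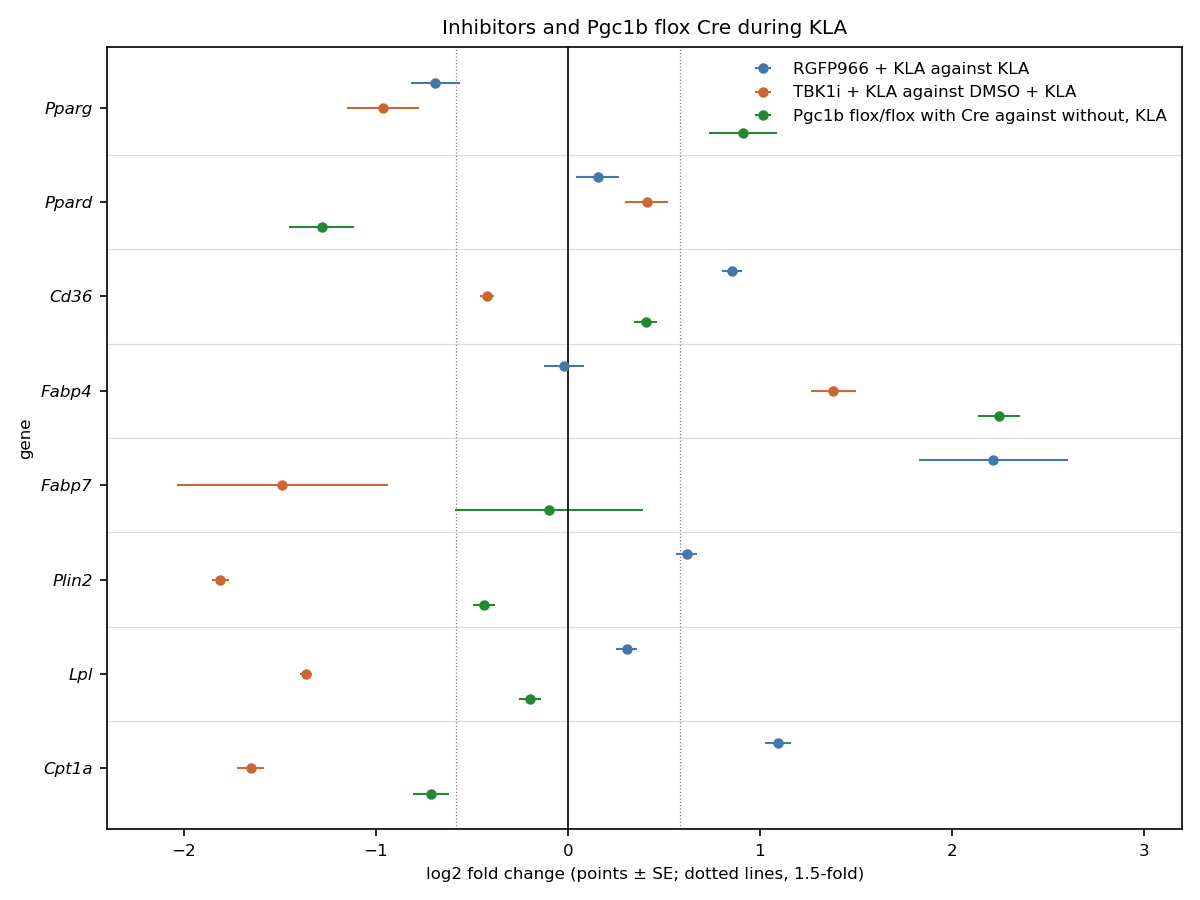
Log2 fold change (± SE) during KLA for RGFP966, TBK1i and Pgc1b flox/flox with against without LysMCre (colors), with dotted lines at 1.5-fold. Plin2, Lpl and Cpt1a lie to the right of 0 with RGFP966 and to the left with TBK1i, and Fabp4 lies at 1.38 with TBK1i and 2.25 with Cre.

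Other genes of these pathways were read from 6 lists: partners of PPARs, fatty acid uptake and activation, lipid droplet turnover, fatty acid oxidation, the kinases and phosphatases of pyruvate dehydrogenase, and partners of lipoprotein lipase. In vehicle-treated NKO cells, 2 of 11 tested droplet genes were higher and no gene of the other 5 lists was called by edgeR, beside 6.21% of all genes. The droplet list had a median log2 fold change of 0.30, against -0.01 for all genes. Mgll, which splits monoglycerides, averaged 40.1 CPM in WT and 105 in NKO (1.39 ± 0.071). Hilpda, whose product restrains lipolysis at the droplet, averaged 5.59 CPM in WT and 10.5 in NKO (0.91 ± 0.19). Mgll was also higher in NKO under IFNβ (1.57 ± 0.071), IL4 (1.29 ± 0.080) and poly I:C (1.59 ± 0.079), but lower under KLA (-0.93 ± 0.25, interaction term -2.32 ± 0.27), a value singled out after it was seen. Hilpda was higher under IL4 (0.95 ± 0.21) and RANKL (1.14 ± 0.19). None of 14 fatty acid oxidation genes was called by edgeR between genotypes under vehicle, IFNβ, IL4, poly I:C or RANKL, where 1 to 4 of them had an unadjusted p below 0.05. Under KLA 4 of the 14 were higher in NKO and 1 lower, beside 40.0% of all genes called either way, and 11 had an unadjusted p below 0.05.

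KLA in WT cells lowered 8 of 14 fatty acid oxidation genes and raised 1, with a list median of -0.62 against -0.14 for all genes, where 57.8% of all genes were called either way. The same list gave 9 lower and 1 higher in the RGFP966 table (60.0% of all genes), 10 and 1 with DMSO (58.9%) and 2 and 0 in Pgc1b flox/flox cells (48.5%). Poly I:C lowered 7 of 14 and raised 1, beside 47.2% of all genes. Acsl1, which activates long-chain fatty acids, rose with KLA from a mean of 62.4 to 1169 CPM (4.23 ± 0.11), and with poly I:C to 1549 CPM (4.63 ± 0.11). Pdk2, a sister kinase of Pdk4, fell with KLA from 26.5 to 0.912 CPM (-4.85 ± 0.25). Rxra, the DNA-binding partner of PPARs, fell with poly I:C from 85.6 to 11.4 CPM (-2.91 ± 0.12), and both tested PPAR partners were lower with KLA. RANKL raised Dgat2, which makes triglyceride, from 0.515 to 5.25 CPM (3.33 ± 0.35) and lowered Mgll from 40.1 to 5.36 (-2.90 ± 0.11). IL4 lowered Acsl3 (-1.15 ± 0.16) and Fabp5 (-0.84 ± 0.054), and IFNβ raised Pdk3 (0.81 ± 0.12) and Hilpda (0.70 ± 0.19).

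During KLA, NKO cells had more Furin, a protease that can cleave lipoprotein lipase and its partners (1135 against 337 CPM, 1.75 ± 0.057), and Slc27a1, a fatty acid transport protein (245 against 77.4 CPM, 1.66 ± 0.063), with stamp and sex confounded as above. The fatty acid uptake and activation list had 3 of 9 genes higher and 5 lower, with a median of -0.79 against 0.07 for all genes. Of the tested lipoprotein lipase partners, 2 of 4 were higher and 1 lower. Of all genes, 40.0% were called either way. Under RANKL Acsl1 was lower in NKO (79.0 against 174 CPM, -1.14 ± 0.11), and under poly I:C Acsl3 was higher (0.81 ± 0.25). RGFP966 lowered Pdk1 (-1.04 ± 0.11) and Fabp5 (-1.03 ± 0.067), and 3 of 14 fatty acid oxidation genes rose with it while 1 fell, a share near the 25.4% of all genes called. TBK1i lowered Fabp3 (-2.08 ± 0.36) and Pdk3 (-1.52 ± 0.16). In KLA-treated cells labelled Pgc1b flox/flox, LysMCre, Dgat2 was lower (-1.89 ± 0.43) and Pdk2 higher (1.21 ± 0.35), and under vehicle Mgll was higher (0.63 ± 0.14).

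Across the 12 groups of the NCoR table the members did not share one pattern. Pparg was highest with IL4, then with IFNβ and vehicle, and lowest with KLA, where neighbors in this order were separate except the IL4 groups and the pair NKO_RANKL and NKO_PolyIC. The step from WT_IL4 to WT_IFNb was a near tie, with replicate 2 at 117.52 CPM in WT_IL4 and 117.51 in WT_IFNb. Ppard varied 3.62-fold from its highest to its lowest group, and 6 of its 11 neighboring pairs overlapped. The genes outside the 10 whose log2 CPM followed Pparg most closely were Nav1 (Pearson r = 0.981), Gpr155 (0.981) and Map3k3 (0.978), and those nearest Fabp4 were Gdpd5 (0.986), Hyal1 (0.984) and Dusp3 (0.979). Plin2 had no match as close: Mgrn1 (0.911), Cd63 (0.864) and Ctsb (0.861) led. For Ppard they were A130077B15Rik (0.942), Tor4a (0.921) and Ift52 (0.900). These are descriptions over 12 groups that share genotype, stamp and culture, with no test. Among the members, Fabp4 and Angptl4 ran most alike (r = 0.946).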

How the data were processed

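RNA-seq of 44 BMDM libraries was analysed from the deposited raw count tables. Per the methods and the file headers, the authors aligned reads to mm10 with STAR and counted reads in exons with HOMER, without adjustment, 1 isoform per gene. Gene counts per library ran from 8323493 to 16783155. Rows were selected by symbol. The 10 members and the pathway and marker lists were chosen with earlier results of these data known. The test was edgeR 4.0.16 (R 4.3.3), a quasi-likelihood F-test with TMM scaling and its default expression filter, fitted per table on all of its groups (12196 to 13407 genes). A gene was called at a Benjamini-Hochberg adjusted p below 0.05 with a fold above 1.5. Shares of all genes are given for such calls only, not for p-values alone or for non-overlap of libraries. Standard errors were taken as the log2 fold change divided by the square root of F. CPM used TMM-scaled library sizes. Where a group held 0 counts, folds were taken against 3 counts over the group, and with 1 to 3 counts as ratios with exact 95% intervals, which cover counting error only. Sources do not say whether the 2 libraries of a group came from separate mice, so p-values measure the spread between these libraries, and 2 against 2 cannot reach 0.05 by permutation. Deviations of libraries with the same replicate number correlated between -0.060 and 0.059 in the NCoR table, so that numbers were not used as pairs. Pathway genes were named when called, at 5 CPM or more, with the first or second largest change of a comparison, and the 3 genes most correlated with Pparg, Ppard, Fabp4 and Plin2 were named. Alternatives were DESeq2 1.42.0, its size factors in edgeR, other filters, no fold threshold, the compared groups alone, a replicate block, leaving out each library, and other KLA controls. The procedure was tested on simulated data for NKO_Veh against WT_Veh (12591 genes), where it recovered 96 of 100 genes changed 2-fold and 100 of 100 changed 4-fold. It also called 3 unchanged genes. The simulation used a fixed spread, changed no genes of low counts and held no difference of stamp or sex. It therefore does not cover members with few counts or comparisons across stamps. Promoter windows were RefSeq's for GRCm38.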

Additional observations from a re-analysis of the deposited data

Results flagged for a closer look

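These differences between effects passed the test of the difference itself, all on the log2 scale. The NKO effect was larger under KLA than under vehicle for Cd36 (0.79), Fabp4 (0.69) and Fabp7 (3.98), beside 36.9% of all genes called. For these members, NKO_KLA and WT_KLA differ in date stamp and sex as well, and the parts of stamp, sex and genotype cannot be told apart. Fabp7 had 3 counts in all in the WT_KLA group. The Fabp4 call was lost without WT_KLA replicate 2 (0.50). Against the KLA controls of the RGFP966, Pgc1b and TBK1i tables, NKO_KLA gave -0.23, -0.17 and 0.60 for Cd36 and -0.44, 0.02 and 0.58 for Fabp4. The NKO effect was larger under RANKL than under vehicle for Plin2 (0.88), beside 14.2% of all genes called for that difference. RANKL and vehicle libraries differ in date stamp and treatment length, which cannot be told apart from RANKL there.

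In the Pgc1b table, the effect of LysMCre differed between KLA and vehicle for Fabp4 (1.94), Pparg (0.96), Ppard (-1.28) and Cpt1a (-0.71), beside 22.8% of all genes called. Ppargc1b counts were not lower in the libraries labelled with Cre, whereas Lyz2 was lower in them, with log2 fold changes of -0.90 under vehicle and -0.87 under KLA.

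The RGFP966 effect minus the TBK1i effect was 2.70 for Cpt1a, 2.38 for Plin2, 1.62 for Lpl, 1.23 for Cd36, 3.66 for Fabp7 and -1.45 for Fabp4. This test was chosen after the values were seen, and 32.8% of all genes were called in it.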

How the results depend on the processing

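Of 2930 values of single members under alternatives, 2804 stayed on their side of the threshold, and those called kept their direction. Directions were not compared for values called in neither fit. A call was lost for 36 values and gained for 85, 60 of these without a fold threshold. The sign reversed for 5 values called in at least 1 of the fits. The reversals came with other KLA controls for NKO_KLA: Cd36 at -0.23 (RGFP966 table) and -0.17 (Pgc1b flox/flox), Fabp4 at -0.44 (RGFP966 table), Lpl at -0.67 and Pparg at 0.72 (both Pgc1b flox/flox). The cause was not tested. Without a fold threshold, the members called between genotypes were 6 under RANKL (3 with it), 8 under poly I:C (2), 8 under IFNβ (2) and 6 under IL4 (2). In WT they were 4 with IFNβ (0) and 7 with IL4 (2), and for the interaction with genotype 4 with RANKL (1), 3 with poly I:C (0) and 2 with IL4 (0). In the Pgc1b table they were 8 for KLA in flox/flox cells (4) and 7 for Cre under KLA (4). The shares of all genes called without a fold threshold are not given, so these counts do not set the members apart from other genes. NKO under poly I:C gave 1 with DESeq2 and 1 with its size factors, WT with IL4 gave 1 when only the compared groups were fitted, and the IFNβ interaction gave 1 without a filter and 1 with the filter at 5 CPM. Leaving out 1 library at a time gave 1 to 3 called members for NKO against WT under vehicle (3 with all), 1 to 3 under poly I:C (2), 1 to 2 under IL4 (2), 1 to 3 for IL4 in WT (2), and for interactions 1 to 3 with RANKL (1) and 0 to 1 with IFNβ (0). The RANKL interaction gained Ppard without WT_Veh replicate 1 (0.69), NKO_Veh replicate 2 (0.65), WT_RANKL replicate 1 (0.62) or NKO_RANKL replicate 1 (0.66), the last also Pdk4 (2.09), and the IFNβ interaction gained Angptl4 without WT_Veh replicate 1 (-0.77) or NKO_IFNb replicate 1 (-0.74). Angptl4 was called lower with IL4 without WT_Veh replicate 2 (-0.67), and Fabp4 higher in NKO under poly I:C without NKO_PolyIC replicate 1 (0.59). The replicate block changed 0 of 244 calls, so that 3 members were called in NKO under vehicle and 4 under KLA with or without the pairing. For the Pgc1b interaction a fit of the compared groups alone was not run, since it uses all 4 groups. Depth limits Pdk4, Angptl4 under KLA and Fabp7 outside RANKL, where counts were below 100.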

Other observations

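Adipoq, the adipocyte hormone adiponectin and a known PPARγ target, was singled out after its values were seen. It had 36 and 29 counts in IL4-treated WT cells and 74 and 70 in IL4-treated NKO cells, and at most 2 counts in the other 40 libraries. In CPM these were 2.83 and 2.23 in WT and 5.06 and 4.96 in NKO. It passed the expression filter only through these IL4 libraries, so that no test is given. The other 5 adipocyte markers, Plin1, Cidec, Cfd, Lep and Retn, had at most 2 counts in any library. Pparg was highest in the same IL4 groups, whereas Fabp4 was lower with IL4 than with vehicle in WT cells.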
